A study of Mus musculus with 12 samples.

Results

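The hippocampus and the cerebellum of wild-type mice were compared gene by gene, with both tissues taken from the same 3 animals. The comparison used the 6 wild-type libraries of a study of 12: those labelled WT from hippocampus, numbered 1 to 3, and those labelled WT from cerebellum, with the same 3 animal numbers in both tables. The study was made to examine Syt14, a synaptotagmin family member, in mood and motor coordination. Its other 6 libraries, the same tissues from 3 animals labelled SYT14 knockout, were used here as a second set of animals for the same tissue contrast. The wild-type animals are Syt14+/+ and no treatment is named. The labels do not give their age, sex or strain, or the design of the knockout allele. Each library is polyadenylated RNA of a whole dissected tissue, so fewer cells of a type and less RNA per cell cannot be told apart. The deposited tables were made tissue by tissue, and their column headers carry the tag L1 for hippocampus and L4 for cerebellum, so tissue and tag cannot be told apart.

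The hippocampus is a cortical structure of the forebrain, built from glutamatergic granule cells of the dentate gyrus, pyramidal cells of areas CA1 to CA3 and a varied minority of GABAergic interneurons. The cerebellum arises from the hindbrain and is made mostly of small glutamatergic granule cells. Their axons, the parallel fibres, contact Purkinje cells, the large GABAergic neurons that carry the output of the cortex and that fire fast and regularly. Bergmann glia, a specialised astrocyte, wrap the Purkinje cell dendrites. The cell types come first, then the molecules through which they signal, and last energy and lipid metabolism.

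The wild-type libraries held 24355572 to 34971359 counts on genes, and 25269 to 26672 genes had at least 1 count. Mitochondrially encoded genes took 3.94% to 4.52% of counts. Across the genes tested, log2 CPM (read counts scaled to library size with TMM factors) correlated at 0.994 or more between animals within a tissue and at 0.903 to 0.91 between tissues, as a description across genes that are not independent of each other. The defining markers of both labelled tissues were present: Camk2a, the forebrain calcium/calmodulin kinase, stood at 4139, 4083 and 4129 CPM in the 3 hippocampus libraries, and Car8, a Purkinje cell protein, at 1509.8, 1452 and 1800.1 CPM in the 3 cerebellum libraries.

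Of 18128 genes tested, 11948 differed between the tissues (65.9%, edgeR quasi-likelihood test with animal as a block, Benjamini-Hochberg adjusted p below 0.05, referred to as called). The calls were split evenly, with 5970 higher in hippocampus (32.9%) and 5978 higher in cerebellum (33%). Every list count below is to be read beside these shares. The lists were chosen with earlier results of these data known, and markers of cell types and regions because they are known from them. Their direction was thus largely built into the choice, and their counts describe the libraries without being independent evidence. The median log2 fold change, always hippocampus minus cerebellum, was -0.02 over all genes tested. Where mean CPM values of the 3 libraries are joined by "against", hippocampus comes first. The signed value beside them is the log2 fold change, with its standard error where one follows. That standard error is the size of the log2 fold change divided by the square root of its F statistic. It is not a separate estimate, and it can be smaller than counting error alone where a tissue has few counts. Scaling by library totals alone shifted the median over all genes tested by -0.139. It left 38.8% of the calls higher in hippocampus instead of 49.97%, so small differences depend on the scaling. Many calls were small: 4914 of the 11948 (41.1%) were under 1.5-fold, and the median size of a called log2 fold change was 0.74. A test against a 2-fold difference (glmTreat, adjusted p below 0.05, referred to as past 2-fold) kept 1963 genes higher in hippocampus (10.8%) and 1364 higher in cerebellum (7.52%). With library totals alone the split was 1732 and 1621. The 3 libraries of one tissue lay wholly above the 3 of the other for 12788 genes (70.5%). In the hippocampus 417 called genes were at least 16-fold higher and 159 at least 64-fold higher, against 248 and 96 in the cerebellum. Among the 734 lincRNA genes tested, 34.3% were past 2-fold (167 higher in hippocampus and 85 in cerebellum), against 17.7% of the 14923 protein coding genes. At the other end, 3111 genes with at least 5 CPM in both tissues were not called.

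**Figure D1:**
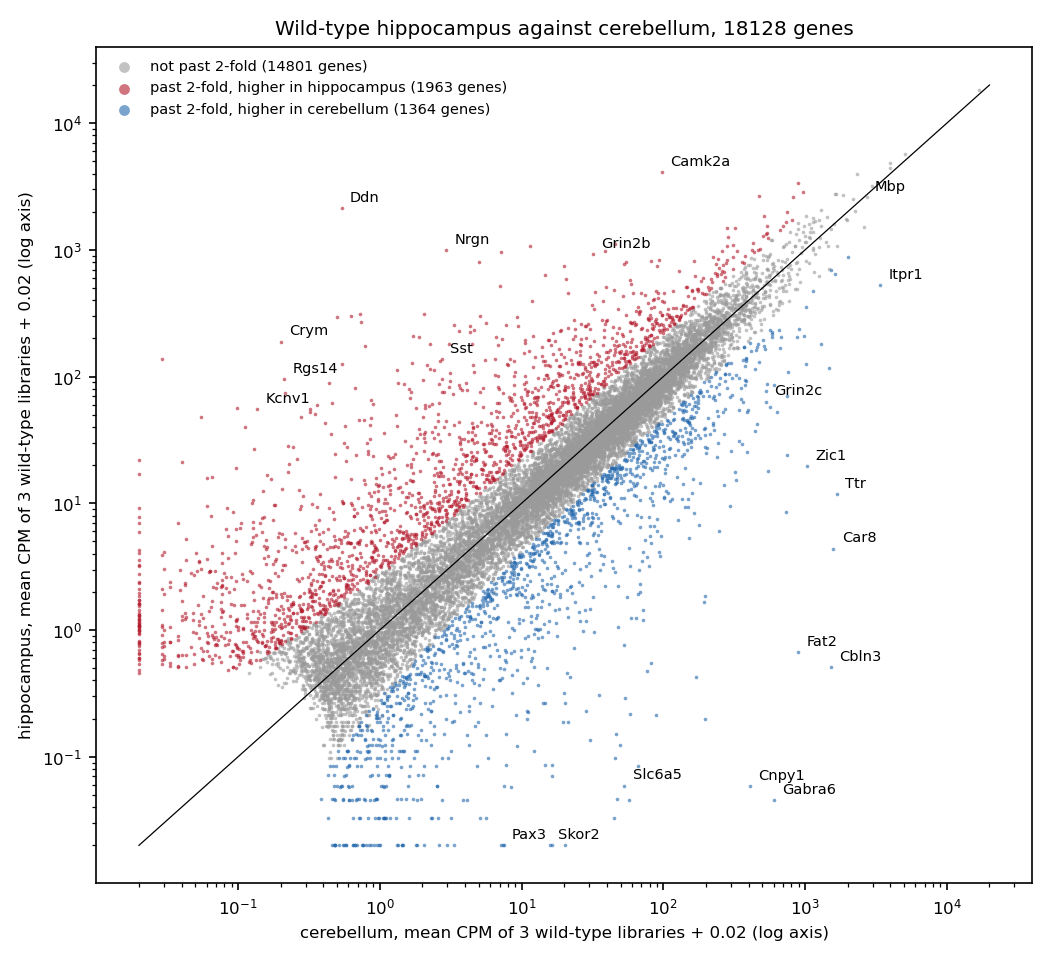
Mean CPM of each tested gene in the 3 wild-type cerebellum libraries (horizontal) and the 3 wild-type hippocampus libraries (vertical), both log axes with 0.02 added so that genes at 0 can be drawn. Coloured points are past 2-fold (1963 red, higher in hippocampus, and 1364 blue, higher in cerebellum). The line marks equal levels: Ddn and Crym lie far above it, Cbln3 and Gabra6 far below, and Mbp close to it.

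Among the genes with the steepest differences towards the hippocampus were transcription factors of the embryonic forebrain. Fezf2 (ENSMUSG00000021743, chr14:12342094-12348189 in GRCm38), a zinc finger factor of cortical projection neurons, stood at 46.2, 51.6 and 45.1 CPM in hippocampus and gave 3 counts in cerebellum, a ratio of 1520.3 (95% counting interval 519.8 to 7376). Such intervals cover counting error only.

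Ddn (dendrin, chr15:98803777-98809490), a protein of dendrites and their postsynaptic density, was the most abundant of the leading genes. It stood at 2115, 2137 and 2167 CPM in hippocampus and at 0.789, 0.429 and 0.333 CPM in cerebellum, a log2 fold change of 12.07 ± 0.12 (standard error, adjusted p = 7.45e-15 by the edgeR quasi-likelihood test). The 3 hippocampus libraries were nearly level and lay far above all 3 cerebellum libraries. Crym, a thyroid hormone binding protein, had means of 188.4 against 0.18 CPM (log2 fold change 10.02). Rgs14, a regulator of G protein signalling known from CA2 neurons, had 95.1 against 0.191 CPM (9.02 ± 0.17). Icam5, an adhesion molecule of telencephalic neurons, had 303 against 0.61 CPM (8.98 ± 0.12), and Gda, the enzyme guanine deaminase, 311 against 0.701 CPM (8.87 ± 0.13). Cpne7, a calcium-dependent membrane-binding protein, had 294 against 0.476 CPM (9.37 ± 0.14), and Zfp831, a zinc finger protein, 56.3 against 0.0789 CPM (9.71 ± 0.26).

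Several genes had no count at all in the other tissue, and their difference is a lower bound against a floor of 3 counts per library. Nr2e1, an orphan nuclear receptor of neural stem cells, stood at 16.8, 15.2 and 18.7 CPM in hippocampus and had no count in any cerebellum library, which makes it at least 175-fold higher. On the same footing Emx2os, an antisense transcript beside Emx2, was at least 95-fold higher, Krt2, a keratin, at least 80.5-fold, and Dlx2, at least 61.3-fold. Dlx6os1, an antisense RNA of the Dlx5 and Dlx6 locus, gave 2 counts in cerebellum and a ratio of 1008 (95% counting interval 279 to 8331). The strand setting used in counting is unknown here, so reads of Emx2os and Dlx6os1 cannot be told apart from those of the genes they overlap. In all, 6 genes with at least 5 CPM in hippocampus had no count in cerebellum, and 6 with at least 5 CPM in cerebellum had none in hippocampus.

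The steepest differences towards the cerebellum were led by Gabra6 (ENSMUSG00000020428, chr11:42306437-42321072), the GABA-A receptor subunit of cerebellar granule cells. It stood at 626, 584 and 600.5 CPM in cerebellum and gave 2 counts over the 3 hippocampus libraries, a ratio of 23198 (95% counting interval 6422 to 191560.0). Cbln3, a secreted cerebellin of granule cells, stood at 1533, 1453 and 1569 CPM in cerebellum and 0.629, 0.418 and 0.432 CPM in hippocampus (log2 fold change -11.58 ± 0.10, adjusted p = 2.84e-15 by edgeR). The hippocampus libraries were all below 1 CPM for both genes and the ranges of the tissues were far apart.

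Fat2, a protocadherin of parallel fibres, had means of 0.645 against 898 CPM (-10.42 ± 0.12), and Ppp1r17, the Purkinje cell phosphatase inhibitor once called G-substrate, 0.18 against 195.4 CPM (-10.04 ± 0.17). Tfap2b, a factor of the GABAergic cerebellar lineage, had 0.0651 against 66.4 CPM (-9.91 ± 0.16), and Zfp385c, a zinc finger gene, 0.0777 against 45.4 CPM (-9.11 ± 0.21). Cnpy1, known from growth factor signalling at the boundary of midbrain and hindbrain, gave 3 hippocampal counts and a ratio of 10613 (95% counting interval 3631 to 51468). Hes3, a transcriptional repressor of the same boundary, had a ratio of 3488 (95% counting interval 626 to 137786), Nrk, a protein kinase, of 2211 (95% counting interval 612 to 18265), and Aqp6, an aquaporin, of 1818 (95% counting interval 503 to 15017). Slc6a5, the glycine transporter of glycinergic neurons, had a ratio of 1379 (95% counting interval 472 to 6689). Skor2, a corepressor of Purkinje cells, had no count in hippocampus and was at least 136-fold higher in cerebellum. The same held for Sycp1 (at least 173-fold), a protein of meiotic chromosomes, and for Lbx1 and Pax3 (at least 64.8-fold and 63.2-fold), homeobox factors of the hindbrain and spinal cord.

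The start regions of 4 of these genes are printed because they carry the widest differences between the tissues, one pair in each direction. They are the first of each direction that belong to a list used here and have a single start in the table of promoters, and they run from 250 bases before to 50 bases after the transcription start. Each is on the minus strand of GRCm38 and is written 5′ to 3′, from RefSeq, with CG dinucleotides in capitals.
Dlx2, chr2:71546705-71547004, higher in hippocampus: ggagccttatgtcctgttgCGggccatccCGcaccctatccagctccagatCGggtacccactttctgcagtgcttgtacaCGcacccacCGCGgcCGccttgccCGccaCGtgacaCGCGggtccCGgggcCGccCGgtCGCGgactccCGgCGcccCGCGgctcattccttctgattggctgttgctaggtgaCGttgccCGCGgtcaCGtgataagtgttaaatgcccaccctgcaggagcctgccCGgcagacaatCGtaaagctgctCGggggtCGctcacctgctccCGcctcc
Fezf2, chr14:12345816-12346115, higher in hippocampus: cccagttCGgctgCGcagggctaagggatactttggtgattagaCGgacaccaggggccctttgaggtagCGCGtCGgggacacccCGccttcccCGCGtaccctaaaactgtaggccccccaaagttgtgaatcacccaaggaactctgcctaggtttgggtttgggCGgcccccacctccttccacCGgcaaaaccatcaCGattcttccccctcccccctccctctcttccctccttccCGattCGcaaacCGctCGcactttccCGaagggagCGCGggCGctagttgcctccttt
Gabra6, chr11:42321023-42321322, higher in cerebellum: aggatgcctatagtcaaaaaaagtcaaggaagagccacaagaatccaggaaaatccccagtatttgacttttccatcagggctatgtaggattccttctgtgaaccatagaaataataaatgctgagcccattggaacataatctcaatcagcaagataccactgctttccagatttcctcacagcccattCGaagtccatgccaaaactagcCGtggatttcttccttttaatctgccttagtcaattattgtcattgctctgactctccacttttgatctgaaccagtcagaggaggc
Cbln3, chr14:55884207-55884506, higher in cerebellum: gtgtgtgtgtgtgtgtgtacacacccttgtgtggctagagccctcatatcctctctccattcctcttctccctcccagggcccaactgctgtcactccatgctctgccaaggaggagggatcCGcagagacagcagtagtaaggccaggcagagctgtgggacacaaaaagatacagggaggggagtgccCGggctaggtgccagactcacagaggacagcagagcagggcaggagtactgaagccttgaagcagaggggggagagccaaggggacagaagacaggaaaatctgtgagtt
The Dlx2 and Fezf2 windows held 29 and 20 CG dinucleotides, and those of Gabra6 and Cbln3 held 2 each. Over 12644 tested genes with a promoter in the table the median was 19. It was 15 for the 1341 genes past 2-fold towards the hippocampus and 14 for the 890 past 2-fold towards the cerebellum and the medians of the 2 directions were close. An E-box, CAGATG or its reverse complement CATCTG, was in 12.6% of all these windows, in 15.96% of those higher in hippocampus and in 15.7% of those higher in cerebellum. The palindromic E-box CAGCTG was in 15.8%, 20.6% and 18.8%, and TATAAA or TTTATA in 7.45%, 10.96% and 8.31%. A match of letters is a description of the window and not a binding site.

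All 14 markers of cerebellar granule cells and all 20 markers of Purkinje cells were called higher in cerebellum, every one past 2-fold, with median log2 fold changes of -5.10 and -3.93 against -0.02 over all genes. The granule cell markers summed to 7367, 6815 and 7307 CPM in the cerebellum libraries and to 380.0, 358 and 326 CPM in hippocampus. The Purkinje cell markers summed to 11427, 10872 and 12921 CPM and to 1717, 1659.9 and 1767 CPM. For both lists the tissues were far apart and the 3 animals close. Both hold genes known from cells of the cerebellum, so the direction is a description and not a test.

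Within the granule cell list, Gabra6, Cbln3 and Fat2 were below 1 CPM in hippocampus, and the factors of the lineage were not. Zic1, a zinc finger factor of the granule cell lineage, stood at 30.1, 17.7 and 11.2 CPM in hippocampus and 1107, 1001 and 1002 CPM in cerebellum (log2 fold change -5.78 ± 0.18). Cbln1, which links parallel fibres to Purkinje cells, stood at 7.98, 7.11 and 10.3 CPM in hippocampus and 753, 689.7 and 746 CPM in cerebellum (-6.43 ± 0.08). The smallest difference of the list was that of Etv1, an ETS factor, at 175 against 515 CPM (-1.56 ± 0.06).

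Within the Purkinje cell list, genes known to be nearly private to these cells had the widest differences: Car8, 4.38 against 1587 CPM (-8.50 ± 0.07), Pcp2, 0.405 against 169 CPM (-8.70 ± 0.15), and Lhx1, a LIM homeobox factor, 0.455 against 77.2 CPM (-7.40 ± 0.17). Markers that other neurons also use differed less. Calb1, the calcium buffer calbindin, stood at 127, 132 and 117 CPM in hippocampus and 966, 951 and 1114 CPM in cerebellum (-3.01 ± 0.07). Itpr1, the IP3 receptor of the Purkinje cell endoplasmic reticulum, stood at 524, 516 and 549.9 CPM in hippocampus and 3282, 2939 and 3956 CPM in cerebellum (-2.67 ± 0.06) and was the most abundant gene of the list in cerebellum by CPM. Cerebellum animal 3 was the highest for Itpr1, and the lowest cerebellum library was still several times the highest hippocampus library. Aldoc, the aldolase whose stripes divide the Purkinje cell layer, is also made by astrocytes and had the smallest difference (643 against 1624 CPM, -1.34 ± 0.05).

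Markers of the other cerebellar neurons were mixed. Of 10 markers of cerebellar inhibitory interneurons, 7 were higher in cerebellum and 3 in hippocampus (median -1.13). Slc6a5, Tfap2b, Tfap2a (-6.42) and Pax2 (-5.70), glycinergic and progenitor genes of this lineage, were strongly cerebellar. Grm2, the metabotropic receptor of Golgi cells, was higher in hippocampus (69.6 against 22.3 CPM, 1.64 ± 0.07). Of 6 markers of unipolar brush cells, 5 were higher in cerebellum, among them Eomes (1.45 against 18.3 CPM, -3.80 ± 0.35) and Lmx1a (-5.22), and Plcb1 was higher in hippocampus (1.95).

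Of 15 markers of forebrain excitatory neurons, 14 were higher in hippocampus, all past 2-fold, and none was higher in cerebellum (median 5.23). The list summed to 11272, 11254 and 11413 CPM in hippocampus and 982, 935 and 935 CPM in cerebellum. Nrgn (neurogranin), a calmodulin binding protein of the postsynapse, stood at 991, 976 and 1025 CPM in hippocampus and 3.75, 2.63 and 2.42 CPM in cerebellum (log2 fold change 8.44 ± 0.10). Bcl11b (Ctip2), a factor of CA1 and dentate neurons, had 210.0 against 1.71 CPM (6.94 ± 0.08), and Tbr1, a T-box factor, 61.3 against 0.878 CPM (6.09 ± 0.11). Camk2a had a log2 fold change of 5.41 ± 0.06, its cerebellum libraries at 97.4, 89.5 and 105 CPM. The single member that was not called was Neurod2, a basic helix-loop-helix factor of granule cells of both regions, at 178, 179 and 164 CPM in hippocampus and 169.6, 155 and 165 CPM in cerebellum, with overlapping ranges.

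The hippocampal fields were unequal in how far their markers set the tissues apart. All 8 CA1 markers were higher in hippocampus (median 3.997), led by Fibcd1, a receptor with a fibrinogen domain (174 against 0.767 CPM, 7.91 ± 0.15), and Mpped1 (234 against 4.59 CPM, 5.67 ± 0.06). Of 14 dentate granule cell markers, 13 were higher in hippocampus (median 2.62). They included Lct, the lactase gene (51.1 against 0.33 CPM, 7.20 ± 0.14), C1ql2, a secreted C1q-like synaptic protein of mossy fibres (80.8 against 0.651 CPM, 6.99 ± 0.11), and Dsp, desmoplakin (60.6 against 2.33 CPM, 4.73 ± 0.11). Plk5, a polo-like kinase, was the exception and was higher in cerebellum (27.6 against 111 CPM, -2.01 ± 0.06). Prox1, the factor that fixes dentate granule cell identity, differed by less than 2-fold in the estimate (148, 157 and 128 CPM in hippocampus and 79.2, 70 and 69.6 CPM in cerebellum, 0.99 ± 0.06). Of 11 tested markers of CA3 and mossy cells, 10 were higher in hippocampus (median 1.78), among them Bok, a BCL2 family protein (61.1 against 11.4 CPM, 2.42 ± 0.07). Spock1, a proteoglycan, was not called (267.8 against 273 CPM).

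CA2 markers were the most mixed of the hippocampal fields, with 6 of 9 tested higher in hippocampus and 3 higher in cerebellum (median 0.60). Rgs14 and Necab2, a calcium binding protein (75.2 against 2.73 CPM, 4.81 ± 0.11), were hippocampal. Pcp4, which binds calmodulin and marks CA2 and Purkinje cells alike, was higher in cerebellum (6.56, 4.41 and 6.51 CPM in hippocampus and 31.9, 30.5 and 34.6 CPM in cerebellum, -2.48 ± 0.11). Cacng5, an AMPA receptor auxiliary subunit, was also higher in cerebellum (12.9 against 59.4 CPM, -2.20 ± 0.09).

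Markers of forebrain interneurons were higher in hippocampus for 17 of 19 members, with a median of 5.71, or 5.19 with the members that had no cerebellar count set at their bound. Their sum was close in both tissues, 1189.7 ± 35.2 CPM in hippocampus and 1259 ± 91.1 CPM in cerebellum (SD, n = 3). Most of both sums came from the general GABAergic genes Gad1, Gad2 and Cnr1. Sst, the neuropeptide somatostatin, stood at 142, 126 and 145 CPM in hippocampus and 4.3, 2.47 and 1.39 CPM in cerebellum (log2 fold change 5.71 ± 0.17). Vip, the peptide of disinhibitory interneurons, had 16.2 against 0.0453 CPM (8.48 ± 0.26), and Dlx1, a homeobox factor of their lineage, 40.2 against 0.0924 CPM (8.66 ± 0.16). The 2 members higher in cerebellum were Gad1, the GABA synthesising enzyme (376, 353 and 383 CPM in hippocampus and 576, 523 and 596 CPM in cerebellum, -0.61 ± 0.05), and Cnr1, the cannabinoid receptor CB1 (260.1 against 489.7 CPM, -0.91 ± 0.06). Gad2, the second such enzyme, differed little (193.1 against 169.6 CPM, 0.19 ± 0.05).

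**Figure D2:**
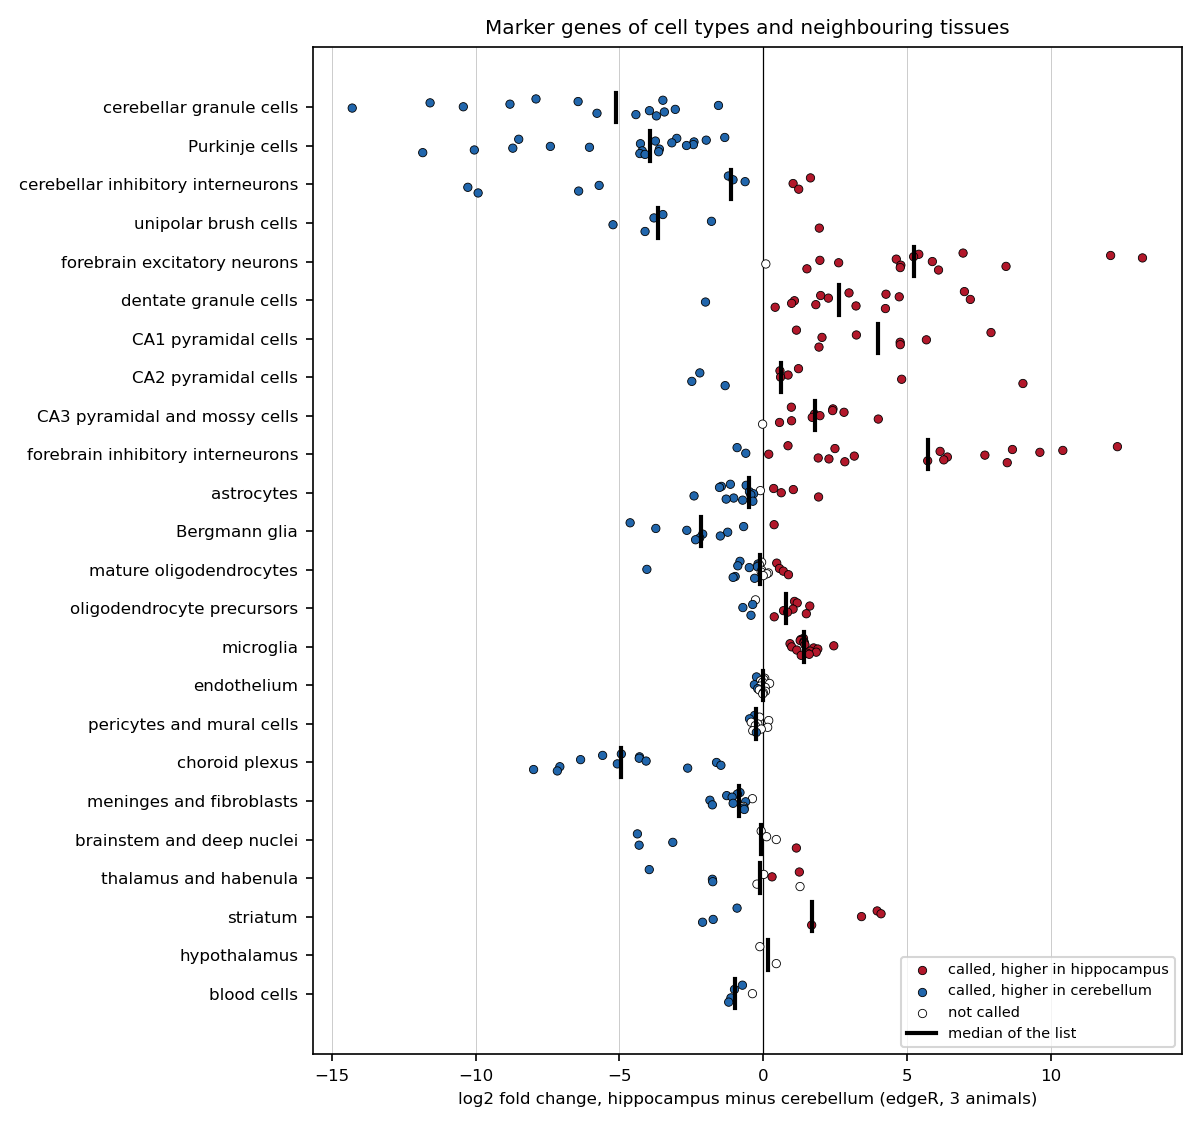
Each point is 1 tested marker gene at its log2 fold change, hippocampus minus cerebellum, in 1 row per list; filled points were called and the bar is the list's median. For genes with no count in a tissue the fitted value drawn here depends on the prior count of the fit. Granule and Purkinje cell markers lie wholly to the left, microglial markers wholly to the right, and endothelial markers around 0.

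Glia differed between the tissues by type. All 17 microglial markers were higher in hippocampus, 13 of them past 2-fold, with a median of 1.42 and a range from 0.93 for Ctss, a lysosomal protease, to 2.45 for Fcrls, a surface receptor of microglia. Their sum was 459, 445 and 513 CPM in hippocampus and 181, 182 and 190.4 CPM in cerebellum. P2ry12, the ADP receptor of resting microglia, stood at 32, 31.2 and 37.2 CPM in hippocampus and 8.16, 9.12 and 9.6 CPM in cerebellum (1.90 ± 0.08). The ranges of the 2 tissues did not overlap for any of the 17 markers. Over all genes tested, the ranges were apart for 70.5%.

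Of 17 astrocyte markers, 12 were higher in cerebellum, 4 in hippocampus and 1 was not called (median -0.48). The sums were 7836, 7402 and 8259 CPM in hippocampus and 7456, 7054 and 7575 CPM in cerebellum, with overlapping ranges. The list was divided by gene: Slc1a2, the glutamate transporter GLT-1, stood at 3324, 3193 and 3625 CPM in hippocampus and 868, 844 and 965 CPM in cerebellum (1.92 ± 0.05), and Gfap, the astrocytic filament protein, at 335 against 162 CPM (1.05 ± 0.05). In the other direction S100b, a calcium binding protein, stood at 70, 64.1 and 67.3 CPM in hippocampus and 352, 347 and 368.3 CPM in cerebellum (-2.41 ± 0.05), and Aqp4, the water channel of astrocytic endfeet, at 163 against 449 CPM (-1.46 ± 0.05). Gja1, the gap junction protein connexin 43, was not called (219.5 against 235 CPM). Of 10 Bergmann glia markers, 9 were higher in cerebellum (median -2.16), led by A2m, a protease inhibitor (3.85 against 95.1 CPM, -4.63 ± 0.12), and Gdf10, a BMP-like growth factor (12 against 159 CPM, -3.73 ± 0.07).

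Mature oligodendrocyte markers had a median near 0, and most precursor markers were higher in hippocampus. Of 20 mature markers, 4 were higher in hippocampus, 9 in cerebellum and 7 were not called (median -0.10), and without animal 2 this median changed sign. The 13 called are a share like the 65.9% over all genes tested. Mbp, a major myelin protein, was not called and stood at 2956, 2217 and 2654 CPM in hippocampus and 2628, 2871 and 2666 CPM in cerebellum. Klk6, a protease of oligodendrocytes that is richest in hindbrain and cord, was the outlying member (0.938 against 15.4 CPM, -4.04 ± 0.23), and Opalin, a membrane protein of myelin, was the most hippocampal (27.2 against 14.7 CPM, 0.88 ± 0.10). Of 12 precursor markers, 8 were higher in hippocampus, 3 in cerebellum and 1 was not called (median 0.78). Pdgfra, the growth factor receptor of precursors, stood at 65.1, 65.1 and 65.5 CPM in hippocampus and 24.7, 21.9 and 22.9 CPM in cerebellum (1.497 ± 0.06), and Gpr17, a receptor of committed precursors, at 49.8 against 16.2 CPM (1.62 ± 0.06).

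Vessel genes hardly separated the tissues. Of 14 endothelial markers, 11 were not called and 3 were higher in cerebellum, none past 2-fold (median -0.02). Flt1, a VEGF receptor, stood at 75.4 against 80.3 CPM and was not called. Of 11 markers of pericytes and mural cells, 8 were not called and 3 were higher in cerebellum (median -0.24). With library totals alone 7 endothelial markers were higher in cerebellum, and the DESeq2 test called none of the mural markers.

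Tissue that borders the dissected regions was present in unequal amounts. All 13 choroid plexus markers were higher in cerebellum, all past 2-fold (median -4.93). They summed to 2089, 2835 and 1131 CPM in the cerebellum libraries and to 64.6, 42.3 and 47 CPM in the hippocampus libraries. Ttr, transthyretin, the thyroid hormone carrier that the plexus secretes, made up most of this, at 1721, 2389.8 and 923 CPM in cerebellum and 22.3, 2.96 and 10.3 CPM in hippocampus (-7.16 ± 0.43). Cerebellum animal 2 had the most plexus signal and cerebellum animal 3 the least, and the ranges of the tissues did not overlap. Of 12 markers of meninges and fibroblasts, 10 were higher in cerebellum, 2 of them past 2-fold (median -0.85); the DESeq2 test called 6. They summed to 85.4 ± 40.9 CPM in hippocampus and 169 ± 26.9 CPM in cerebellum (SD, n = 3). Of 5 tested blood cell genes, 4 were higher in cerebellum and none past 2-fold. The part of this tissue in other cerebellar calls was not tested, and it bears on genes that plexus or meninges also make, such as Igf2 (-1.85), Ptgds (-0.98) and Trpm3 (-1.81).

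Markers of other brain regions differed in level and direction. Of 19 markers of brainstem and deep nuclei, 7 were tested, of which 3 were higher in cerebellum, 1 in hippocampus and 3 were not called, and 7 of the 19 had no count in any hippocampus library. Th, tyrosine hydroxylase, which some Purkinje cells also transcribe, was higher in cerebellum (0.468 against 9.22 CPM, -4.31 ± 0.25). Dbh, the defining enzyme of noradrenergic neurons, was not called (0.569 against 0.643 CPM). Of 9 hypothalamic markers, 2 reached the count filter and neither was called. The striatal list was divided, 4 higher in hippocampus and 3 in cerebellum: Drd1, a dopamine receptor, stood at 5.92 against 0.376 CPM (3.96 ± 0.30), and Ppp1r1b (DARPP-32), which Purkinje cells also make, at 35.5 against 153 CPM (-2.11 ± 0.06). The list of thalamus and habenula had 2 of 8 tested genes higher in hippocampus and 3 in cerebellum, Prkcd among the latter (-1.77).

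Transcription factors listed by brain region were mostly higher in the matching tissue. The forebrain list also holds Egr3, Egr4, Npas4 and Nr4a3, which are counted again among the immediate early genes below. Its count and median are therefore not those of embryonic regional factors alone. Of 31 forebrain factors, 29 were higher in hippocampus, 1 in cerebellum and 1 was not called (median 4.76). Of 41 tested cerebellar and hindbrain factors, 37 were higher in cerebellum, 35 of them past 2-fold, 2 in hippocampus and 2 were not called (median -4.35). The 2 lists summed to 2566 ± 47.7 and 1097 ± 48 CPM in hippocampus, and to 745 ± 35.5 and 4619 ± 179.6 CPM in cerebellum (SD, n = 3).

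Among the forebrain factors, Lhx2, a LIM homeobox gene needed for the hippocampal primordium, stood at 72.6, 74.2 and 76.5 CPM in hippocampus and 0.197, 0.295 and 0.0908 CPM in cerebellum (8.52 ± 0.15). Emx2, a homeobox gene of the same primordium, which Emx2os overlaps, had 15.8 against 0.04 CPM (8.41 ± 0.29). Dlx6 had no cerebellar count and was at least 36.6-fold higher. Cux2, a factor of upper cortical layers, was the one member higher in cerebellum (43.2 against 63.4 CPM, -0.57 ± 0.11).

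Among the hindbrain factors, En2, an engrailed homeobox gene of the midbrain and cerebellum, stood at 1.77, 1.52 and 1.65 CPM in hippocampus and 201, 180.4 and 199 CPM in cerebellum (-6.87 ± 0.08). Its paralogue En1 had no hippocampal count and was at least 22.2-fold higher. Barhl2, a homeobox factor of the rhombic lip, had 0.105 against 49.2 CPM (-8.83 ± 0.22), and Uncx, another homeobox factor, 0.131 against 46.7 CPM (-8.45 ± 0.26). The Zic genes lie as neighbouring pairs, Zic1 with Zic4 on chromosome 9 (-5.78 and -3.71) and Zic2 with Zic5 on chromosome 14 (-4.43 and -3.63), and all 4 were higher in cerebellum. Rora, the nuclear receptor mutated in staggerer mice, stood at 50.2, 44.1 and 63 CPM in hippocampus and 392, 336 and 446 CPM in cerebellum (-2.90 ± 0.05). Meis2 was among the 2 members higher in hippocampus (60.1 against 8.98 CPM, 2.71 ± 0.19), and Nfib was not called (195.7 against 182 CPM). Meis1, the paralogue of Meis2, was cerebellar (1.8 against 55.3 CPM, -4.96 ± 0.14).

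Within gene families the tissues often used different members. Shares were computed from counts per kilobase of annotated exon, a scale that allows members to be compared, and 15 of 21 families had a different leading member in each tissue (14 of 21 without the correction for length). The shares carry no test of their own.

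Of the NMDA receptor GluN2 subunits, which set the kinetics of the channel, Grin2b held 48.8% ± 0.933 of the family in hippocampus and 1.12% ± 0.0912 in cerebellum (SD, n = 3). Grin2c, the subunit of mature granule cells, held 16.5% ± 0.558 and 92% ± 0.416. Without the correction for length Grin2c held 4.43% in hippocampus and 78.8% in cerebellum, and in cerebellum Grin2b held 4.73% and Grin2a 13.8%. Grin2b stood at 937, 951 and 891 CPM in hippocampus and 31.5, 28.7 and 34.8 CPM in cerebellum (4.87 ± 0.07), and Grin2c at 66.5, 61.2 and 62.4 CPM in hippocampus and 523, 522 and 537 CPM in cerebellum (-3.06 ± 0.05). The ranges of the tissues were far apart for both, in opposite directions. Grin2a held 30.6% ± 0.448 in hippocampus and 4.53% ± 0.476 in cerebellum, and Grin1, the obligatory subunit, differed by 0.49 in log2 fold change.

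Gria1 led the AMPA receptor subunits in both tissues, with 63% ± 0.64 in hippocampus and 43.4% ± 0.425 in cerebellum. Gria4, a subunit with fast gating, was second in cerebellum (4.45% ± 0.387 in hippocampus and 38.4% ± 0.269 in cerebellum), at 86.8, 84.8 and 91.6 CPM in hippocampus and 532, 515 and 575 CPM in cerebellum (-2.62 ± 0.05). Gria2, which makes the channel impermeable to calcium, was higher in hippocampus (1139.7 against 426 CPM, 1.42 ± 0.08). Grid1, a delta receptor, was higher in hippocampus as well (81.3 against 25.8 CPM, 1.66 ± 0.07). The auxiliary subunits were split in the same way: of 14, 8 were higher in hippocampus and 5 in cerebellum. Neto1, Cnih3 and Cacng8 led the former (5.68, 4.26 and 3.89). Cacng2 (stargazin), mutated in the ataxic stargazer mouse, was among the latter (75 against 178 CPM, -1.24 ± 0.05).

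Of the metabotropic receptors, Grm5 stood at 391, 407 and 382 CPM in hippocampus and 14, 9.82 and 11.6 CPM in cerebellum (5.08 ± 0.09). Grm4, the presynaptic receptor of parallel fibres, stood at 16.7, 14.7 and 22.2 CPM in hippocampus and 587, 516 and 529 CPM in cerebellum (-4.94 ± 0.10). Slc17a7, the vesicular glutamate transporter VGLUT1, led its family in both tissues (97.6% ± 0.32 and 95% ± 0.698) but was higher in hippocampus (log2 fold change 1.52 ± 0.05). Slc17a6 (VGLUT2) was not called (31.2 against 28.5 CPM), and Slc17a8 (VGLUT3) was higher in hippocampus (6.36 against 0.108 CPM, 5.78 ± 0.33).

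The GABA-A receptor genes differed by subunit. Gabra5, the subunit of extrasynaptic receptors on pyramidal cells, held 38.4% ± 0.591 of the alpha subunits in hippocampus and 0.182% ± 0.0623 in cerebellum, at 199.7, 212 and 199 CPM in hippocampus and 1.74, 2.47 and 1.39 CPM in cerebellum (6.75 ± 0.10). Gabra6 held 69.8% ± 1.82 in cerebellum. Without the correction for length these shares were 22.2% for Gabra5 in hippocampus and 44.8% for Gabra6 in cerebellum, and neither led its tissue on average. Gabrd, the delta subunit of tonic inhibition, held 20.7% ± 1.07 of the gamma and delta genes in hippocampus and 70.2% ± 0.969 in cerebellum, at 28, 28.2 and 26 CPM in hippocampus and 202, 204 and 204 CPM in cerebellum (-2.89 ± 0.05). Its hippocampal share was 10.2% without the correction.

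The subunit genes lie in clusters. On chromosome 5, Gabrg1, Gabra2, Gabra4 and Gabrb1 were all higher in hippocampus (log2 fold changes 0.56, 1.92, 1.93 and 1.87). On chromosome 7, Gabrg3 and Gabra5 were also higher in hippocampus (3.53 and 6.75). On chromosome 11, Gabra6 and Gabrb2 were higher in cerebellum (-0.26 for Gabrb2). The call of Gabrb2 was lost without the block (adjusted p = 0.0673), with the DESeq2 test (0.377) and without animal 1 or 3 (0.111 and 0.211, both by edgeR). Of the 16 GABA-A genes tested, 9 were higher in hippocampus, 4 in cerebellum and 3 were not called. Glycine receptor genes were split as well: Glra1, the adult subunit of the hindbrain, was higher in cerebellum (0.131 against 2.83 CPM, -4.37 ± 0.53), and Glra2 and Glra3 in hippocampus (1.69 and 2.77).

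**Figure D3:**
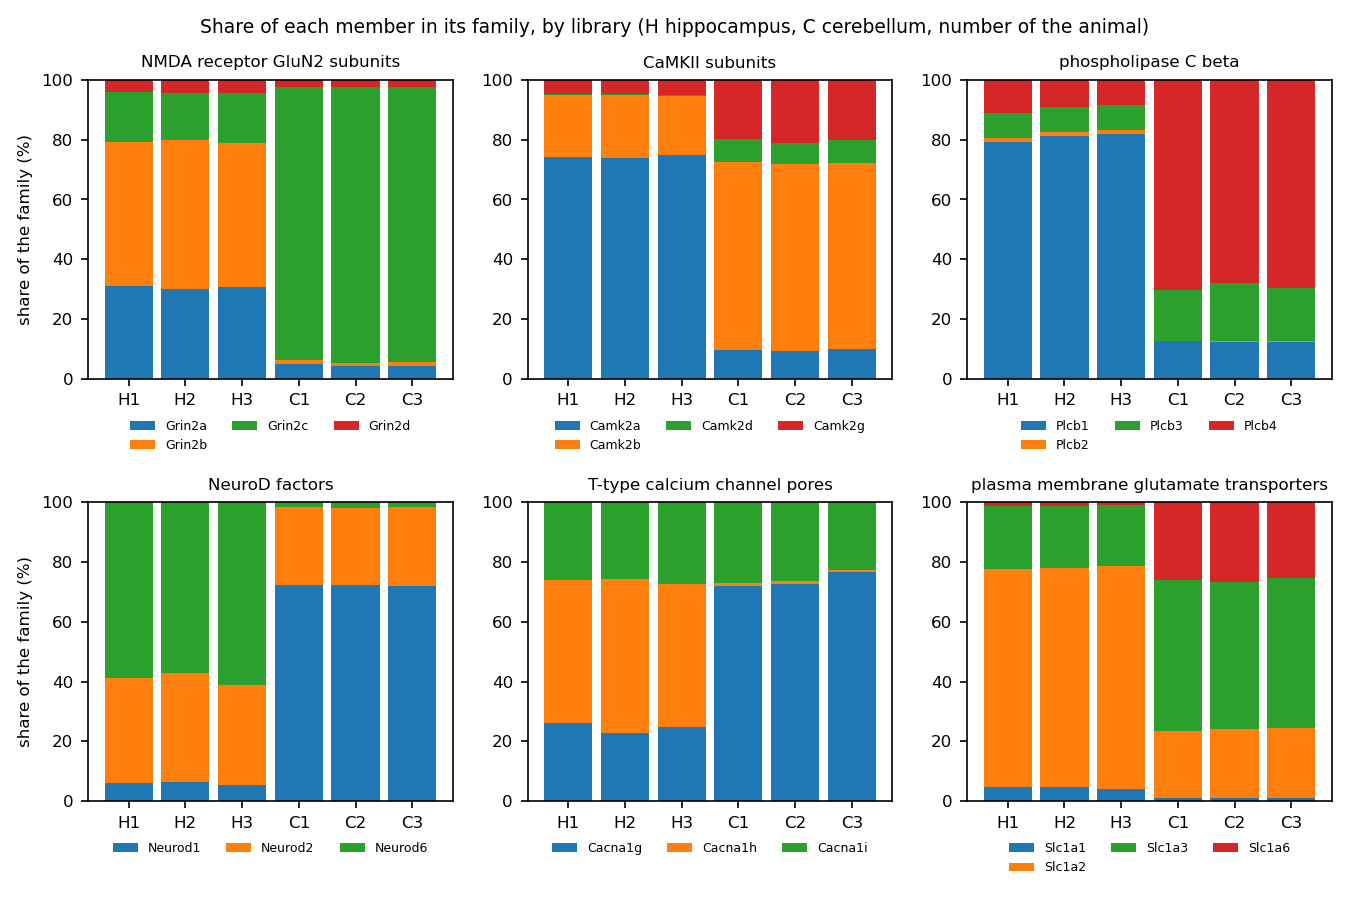
Share of each member in its family in each of the 6 libraries, from counts per kilobase of exon, for 6 families; H and C stand for hippocampus and cerebellum and the number is the animal. Within a tissue the 3 bars are nearly alike, and between tissues the leading member changes in all 6 families drawn.

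Receptors for diffuse transmitters and peptides were mostly higher in hippocampus. Of 12 tested serotonin receptors, 10 were higher in hippocampus, 9 of them past 2-fold, and 1 in cerebellum (median 3.58). Htr1a, the inhibitory receptor of pyramidal cells, stood at 45.5, 46.7 and 43.7 CPM in hippocampus and 0.946, 0.51 and 0.636 CPM in cerebellum (6.06 ± 0.14). Htr4 had 15.5 against 0.152 CPM (6.70 ± 0.22), and Htr3a, the ion channel receptor of interneurons, 9.48 against 0.0404 CPM (7.70 ± 0.40). Htr1b, a presynaptic receptor, was the one higher in cerebellum (8.85 against 18.4 CPM, -1.05 ± 0.14).

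Of 13 tested acetylcholine receptors, 9 were higher in hippocampus and 2 in cerebellum (median 2.01). Chrm1, the muscarinic M1 receptor of pyramidal cells, stood at 271, 275.8 and 268.2 CPM in hippocampus and 0.631, 0.725 and 0.787 CPM in cerebellum (8.55 ± 0.09). Chrm3 had 67.9 against 1.62 CPM (5.36 ± 0.10), and Chrna5, a nicotinic subunit, gave 2 counts in cerebellum and a ratio of 333 (95% counting interval 91.8 to 2758). Chrnb2, a nicotinic subunit found widely in the brain, was higher in cerebellum (77 against 116 CPM, -0.59 ± 0.05).

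Of 15 tested receptors for dopamine, noradrenaline and histamine, 10 were higher in hippocampus and 4 in cerebellum. Drd5 (4.36), Drd1 (3.96) and Adra1d (75 against 5.09 CPM, 3.88 ± 0.07) led the first, and Drd4 (0.065 against 1.13 CPM, -4.03 ± 0.55) the second. Of 15 receptors for opioids, cannabinoids and purines, 9 were higher in hippocampus, led by the delta opioid receptor Oprd1 (19.9 against 1.54 CPM, 3.70 ± 0.13), and 4 in cerebellum, led by the ADP receptor P2ry1 (2.07 against 8.26 CPM, -2.005 ± 0.22).

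Of 24 tested neuropeptide receptors, 19 were higher in hippocampus, 16 of them past 2-fold, and 4 in cerebellum (median 3.04). Npy2r, the presynaptic neuropeptide Y receptor, stood at 60, 62.1 and 58.4 CPM in hippocampus and 0.552, 0.349 and 0.121 CPM in cerebellum (7.52 ± 0.17). Sstr4, a somatostatin receptor, had 29.9 against 0.54 CPM (5.87 ± 0.21), and Npy5r 9.67 against 0.163 CPM (5.83 ± 0.24). In the other direction Crhr1, the receptor for corticotropin-releasing hormone (a peptide of climbing fibres), stood at 9.32, 9.69 and 12.4 CPM in hippocampus and 78.8, 91.2 and 78.4 CPM in cerebellum (-2.98 ± 0.09), and Vipr2 at 1.01 against 12.8 CPM (-3.66 ± 0.16). The peptides themselves were tilted the same way, with 17 of 23 tested genes higher in hippocampus and 3 in cerebellum (median 2.49). Crhbp, which binds the hormone of Crhr1, had 26.7 against 0.11 CPM (7.93 ± 0.19), and Penk, proenkephalin, 19.9 against 66.4 CPM (-1.74 ± 0.06).

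Nuclear hormone receptors went both ways, 8 higher in hippocampus, 6 in cerebellum and 4 not called of 18 tested. Over all genes tested 32.9% were higher in hippocampus and 33% in cerebellum. Nr3c2, the mineralocorticoid receptor, stood at 236, 241 and 226 CPM in hippocampus and 37.6, 36.1 and 40.8 CPM in cerebellum (2.62 ± 0.06). Nr3c1, the glucocorticoid receptor that shares its ligand, was not called (123 against 133 CPM). Esr1, an oestrogen receptor, was higher in hippocampus (4.1 against 0.522 CPM, 3.03 ± 0.31).

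Potassium channels of the Kv class were higher in hippocampus for 24 of 39 genes and in cerebellum for 13 (median 1.22). Kcnv1, a silent subunit that modifies Kv2 channels, stood at 53.4, 55.6 and 57.3 CPM in hippocampus and 0.118, 0.0805 and 0.151 CPM in cerebellum (8.86 ± 0.14), and Kcnip2, a partner of A-type channels, at 182 against 2.26 CPM (6.34 ± 0.07). Kcnq5, a subunit of the M current, had 114 against 2.23 CPM (5.71 ± 0.11), and Kcnh3 124 against 2.12 CPM (5.86 ± 0.08). Of the Kv3 genes, whose fast closing lets neurons fire at high rates, Kcnc1 went the other way and stood at 245, 223 and 245 CPM in hippocampus and 913, 883 and 929 CPM in cerebellum (-1.93 ± 0.05). Kcnc2, the Kv3 member of forebrain interneurons, did not follow it (138 against 8.24 CPM, 4.06 ± 0.08). Kcng4, a silent subunit, was the most cerebellar Kv gene (6.78 against 177 CPM, -4.71 ± 0.07).

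The inward rectifier, K2P leak and calcium-activated potassium channels were even, with 11 of 24 higher in hippocampus and 12 in cerebellum. Kcnj4 was the most hippocampal (88.9 against 0.417 CPM, 7.69 ± 0.14) and Kcnj12 the most cerebellar (6.64 against 86.1 CPM, -3.69 ± 0.07), although both encode strong inward rectifiers. The sodium-activated pair was divided likewise, Kcnt2 in hippocampus (41.1 against 0.835 CPM, 5.65 ± 0.13) and Kcnt1 in cerebellum (76.8 against 533 CPM, -2.80 ± 0.05). Kcnk3, the acid-sensitive leak channel TASK-1, was cerebellar (16.1 against 125 CPM, -2.95 ± 0.06).

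Scn2a, a main sodium channel pore, led its family on the per-kilobase scale in both tissues (38.7% ± 0.613 and 43.2% ± 1.34; without it Scn8a led in hippocampus) and was not called (407, 438 and 419 CPM in hippocampus and 481, 403 and 476 CPM in cerebellum). The wide differences lay in Scn3b, a beta subunit (299 against 5.04 CPM, 5.91 ± 0.08), and Scn3a, a pore of immature neurons (73 against 3.28 CPM, 4.51 ± 0.12), both hippocampal. Scn4b, the beta subunit linked to the resurgent current of Purkinje cells, was cerebellar (30.2, 27.7 and 39.7 CPM in hippocampus and 105, 128 and 138 CPM in cerebellum, -1.93 ± 0.08).

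Calcium channel pores changed places. Of the high voltage pores, Cacna1a (the P/Q type) held 24.3% ± 0.424 in hippocampus and 61.7% ± 0.721 in cerebellum, and Cacna1e (the R type) held 33.2% ± 0.288 and 14.9% ± 0.666 (26.7% in cerebellum without the correction for length). Of the T type pores, Cacna1h held 49.2% ± 2.2 and 0.893% ± 0.0795, and Cacna1g held 24.5% ± 1.72 and 73.8% ± 2.39. Cacna1h stood at 177, 197 and 166 CPM in hippocampus and 4.93, 3.92 and 4.51 CPM in cerebellum (5.35 ± 0.09), and Cacna1g at 99.6, 89.9 and 89.6 CPM in hippocampus and 375, 355 and 417 CPM in cerebellum (-2.04 ± 0.06). Auxiliary subunits were split likewise: Cacnb1, Cacnb3 and Cacna2d1 were hippocampal (2.52, 2.03 and 1.91), and Cacnb4 and Cacna2d2, whose mutations cause ataxia in mice, were cerebellar (-1.04 and -2.61).

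On the route from metabotropic receptors to stored calcium, the phospholipases had different leading members and the store channels the same one. Plcb1 held 80.8% ± 1.27 of the phospholipase C beta genes in hippocampus, and Plcb4 held 69.2% ± 1.09 in cerebellum. Plcb4 stood at 33.9, 27.9 and 26.2 CPM in hippocampus and 368.4, 315 and 391 CPM in cerebellum (-3.61 ± 0.08). Itpr1 led the store channels in both tissues (53.9% ± 0.609 and 90.7% ± 0.9), and the ryanodine receptors Ryr2 and Ryr3 were hippocampal (0.74 and 2.32). The TRP channel genes Trpc4 (4.83) and Trpc6 (4.25) were hippocampal. Atp2a3, a calcium pump of the endoplasmic reticulum, stood at 8.53, 8.82 and 11.1 CPM in hippocampus and 283.2, 274 and 326 CPM in cerebellum (-4.96 ± 0.06). Of the plasma membrane pumps, Atp2b1 led in hippocampus (45.6% ± 0.419) and Atp2b3 in cerebellum (46% ± 1.497). Without the correction for length Atp2b2 led in cerebellum with 54.5%, and Atp2b3 held 23.9%.

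Kinases and calcium sensors were mostly hippocampal. Camk2a held 74.4% ± 0.535 of the CaMKII genes in hippocampus and 9.57% ± 0.399 in cerebellum, where Camk2b led with 62.7% ± 0.346. Camk2b was itself higher in hippocampus in CPM (1389 against 778 CPM, 0.84 ± 0.05). Of 26 calcium and cyclic nucleotide kinases, 19 were higher in hippocampus and 7 in cerebellum (median 0.85). Camkv, a kinase-like protein of synapses, was the steepest (798 against 4.98 CPM, 7.35 ± 0.10). Camk4, which acts on nuclear factors in granule cells, stood at 204, 202 and 224 CPM in hippocampus and 1026, 853 and 1082 CPM in cerebellum (-2.23 ± 0.06). Of 21 calcium binding proteins, 12 were hippocampal, with Hpca (hippocalcin) at 1122 against 45.5 CPM (4.62 ± 0.05) and Hpcal4 at 980.1 against 39 CPM (4.65 ± 0.07), and 9 were cerebellar. Among the latter Pvalb (parvalbumin) stood at 16.4, 16.9 and 19.3 CPM in hippocampus and 303, 335 and 330.2 CPM in cerebellum (-4.20 ± 0.06), and Calb2 (calretinin) at 31 against 343 CPM (-3.49 ± 0.12).

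Cyclic nucleotide enzymes were divided by isoform, 16 of 30 higher in hippocampus and 12 in cerebellum with their phospholipases counted. Pde1a was hippocampal (252 against 4.3 CPM, 5.89 ± 0.09) and its paralogue Pde1c cerebellar (12 against 109 CPM, -3.19 ± 0.06). Pde5a, which breaks down cyclic GMP in Purkinje cells, was cerebellar (14 against 99.8 CPM, -2.83 ± 0.06). Of 27 G protein and RGS genes, 18 were hippocampal and 6 cerebellar. Rgs8, an RGS protein of Purkinje cells, stood at 118, 119 and 117 CPM in hippocampus and 1390.2, 1381 and 1634 CPM in cerebellum (-3.64 ± 0.06), and Rgs4 at 151 against 16.8 CPM (3.17 ± 0.06).

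**Figure D4:**
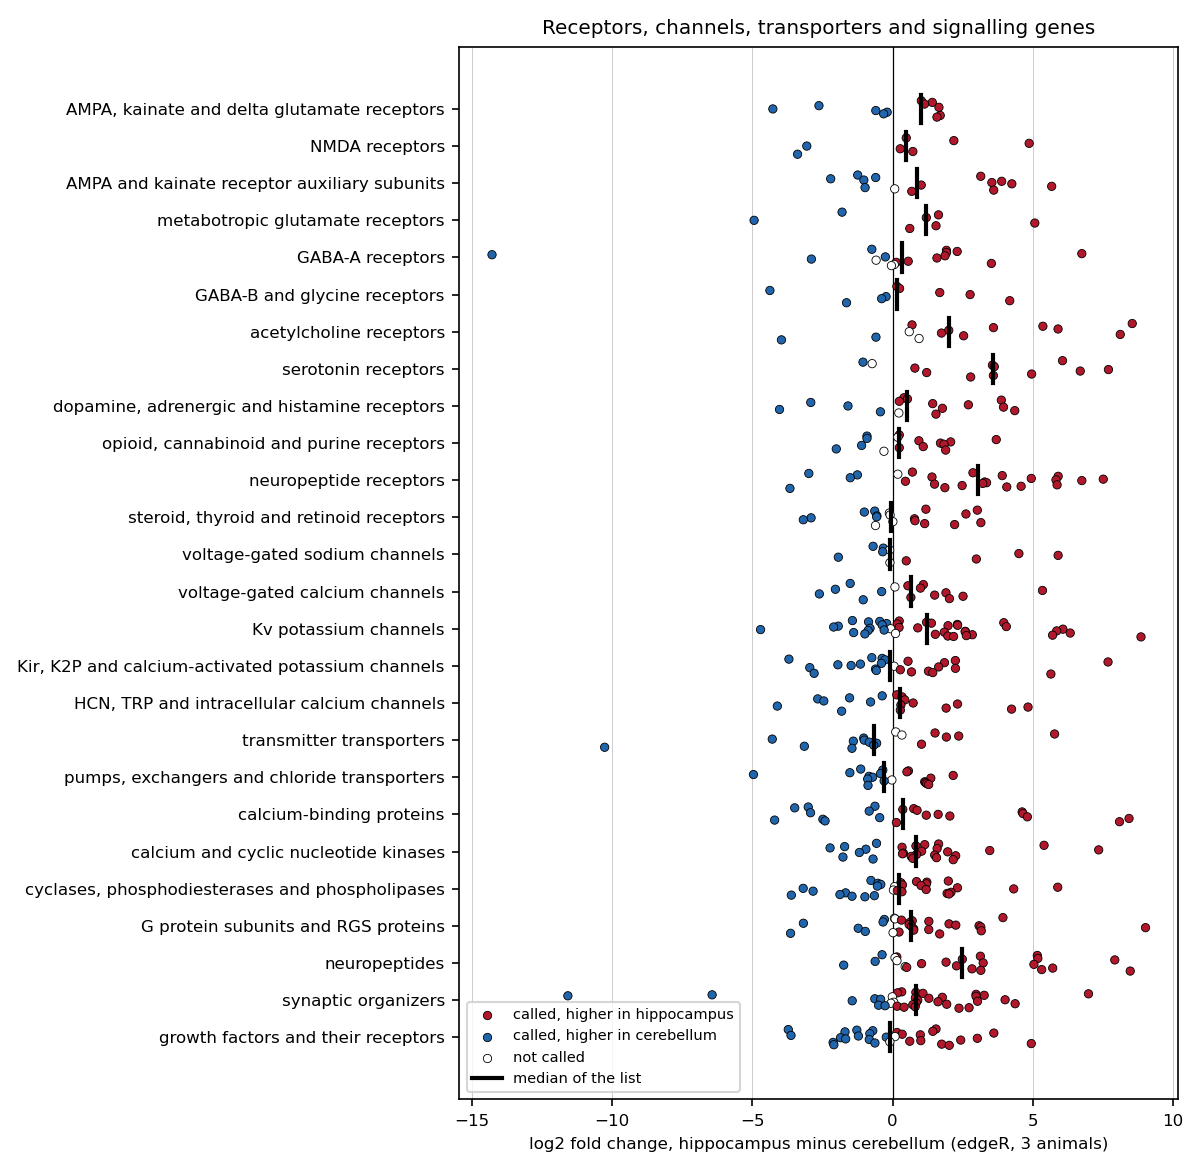
Each point is 1 tested gene at its log2 fold change, hippocampus minus cerebellum, in 1 row per list of receptors, channels, transporters and signalling genes; filled points were called and the bar is the list's median. Serotonin, acetylcholine and neuropeptide receptors lie mostly to the right of 0, while most other lists hold members far out on both sides; the fitted value of a gene with few counts in a tissue, such as Gabra6, depends on the prior count of the fit.

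Proteins that organise synapses were higher in hippocampus for 24 of 34 genes and in cerebellum for 7 (median 0.82). Cbln1 and Cbln3 together gave nearly all of the cerebellin signal of the cerebellum (43.4% ± 0.479 and 56.4% ± 0.476 of the family), while Cbln4 and Cbln2 led in hippocampus (47.7% ± 1.92 and 31.3% ± 3.68). Nptx2, a pentraxin that clusters AMPA receptors, stood at 23.5 against 1.13 CPM (4.37 ± 0.13), and Lrrtm1, a ligand of neurexins, at 104 against 6.46 CPM (4.02 ± 0.07). Lrrtm3 of the same family was cerebellar (21.9 against 59.2 CPM, -1.44 ± 0.06). Nptx1 was not called (734 against 763 CPM).

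Growth factors and their receptors were split, 13 higher in hippocampus and 14 in cerebellum of 29 tested. Over all genes tested these shares were 32.9% and 33%. Bdnf, the neurotrophin of activity-dependent plasticity, stood at 48.1, 47.2 and 49 CPM in hippocampus and 18.2, 16.1 and 15.1 CPM in cerebellum (1.55 ± 0.07). Wnt2, a secreted ligand, had 4.36 against 0.137 CPM (4.95 ± 0.46). Shh, which Purkinje cells secrete, was cerebellar (1.46 against 6.33 CPM, -2.12 ± 0.18), as were Fgf7 (-3.62) and Bmp5 (-3.72).

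Of 17 tested transmitter transporters, 10 were higher in cerebellum and 5 in hippocampus, against 33% and 32.9% of all genes tested. The summed level of the list went the other way, 6821 ± 279 CPM in hippocampus and 4784 ± 216 CPM in cerebellum (SD, n = 3). Slc1a2 held 73.7% ± 0.633 of the plasma membrane glutamate transporters in hippocampus, while Slc1a3, the GLAST of Bergmann glia, held 49.99% ± 0.761 in cerebellum. Slc1a6, the Purkinje cell transporter EAAT4, held 1.13% ± 0.217 in hippocampus and 26% ± 0.702 in cerebellum (0.205% and 7.04% without the correction for length), at 8.92, 9.27 and 7.06 CPM in hippocampus and 163, 159.9 and 171 CPM in cerebellum (-4.29 ± 0.08). Slc6a9, the glial glycine transporter, was also cerebellar (30.3 against 82.2 CPM, -1.45 ± 0.06).

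Differences in core energy metabolism were small. Of 44 tested nuclear genes of oxidative phosphorylation, 11 were higher in hippocampus, 12 in cerebellum and 21 were not called, none past 2-fold (median -0.02). Of 29 genes of the tricarboxylic acid cycle and pyruvate entry, 10 were higher in hippocampus, 10 in cerebellum and 9 were not called, none past 2-fold (median 0.00). Over all genes tested 65.9% were called, a share like that of the cycle list, and 10.8% and 7.52% were past 2-fold towards hippocampus and cerebellum. The small differences depended on the settings: with library totals alone the oxidative phosphorylation list had 4 higher in hippocampus and 26 in cerebellum. Without animal 1 it had 7 higher in cerebellum and the cycle list 6, and without animal 3 it had 6 higher in hippocampus. Cox4i1, a subunit of cytochrome oxidase, stood at 282, 253 and 292 CPM in hippocampus and 271, 289 and 267.9 CPM in cerebellum. The ranges overlapped.

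Isoforms of some enzymes of sugar metabolism differed in direction. Aldoa held 71.7% ± 0.684 of the 2 aldolase genes in hippocampus and Aldoc 62% ± 0.25 in cerebellum. Pfkl, a phosphofructokinase, was hippocampal (251 against 86.2 CPM, 1.55 ± 0.05) and its paralogue Pfkm cerebellar (358 against 497 CPM, -0.47 ± 0.05). Ldhb led in both tissues and held 69.3% ± 0.333 of the lactate dehydrogenase genes in hippocampus and 87.8% ± 0.747 in cerebellum. Ckb, brain creatine kinase, stood at 894, 801 and 944 CPM in hippocampus and 2050.2, 1958 and 2007 CPM in cerebellum (-1.19 ± 0.05). Glycogen phosphorylases were divided, Pygl hippocampal (1.59) and Pygm cerebellar (-1.38).

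Over all genes tested, 32.9% were higher in hippocampus and 33% in cerebellum, and 10.8% and 7.52% were past 2-fold. Of 26 genes of cholesterol synthesis and transport, 13 were higher in hippocampus and 8 in cerebellum, with 1 past 2-fold in each direction. Stard4, a sterol carrier, was the cerebellar one (27.7 against 67.6 CPM, -1.29 ± 0.06). Cyp46a1, the neuronal enzyme that turns cholesterol into a form that leaves the brain, was the hippocampal one (140.2, 146 and 150.5 CPM in hippocampus and 33.8, 36.7 and 35.9 CPM in cerebellum, 2.04 ± 0.05). Lpl, lipoprotein lipase, stood at 40.1, 44.4 and 52.4 CPM in hippocampus and 0.71, 0.939 and 0.606 CPM in cerebellum (5.90 ± 0.14). Thyroid hormone genes held Crym and Dio3, the enzyme that inactivates the hormone (6.94 against 0.0846 CPM, 6.32 ± 0.29), on the hippocampal side and Hr, a corepressor that responds to it, on the cerebellar side (19.1 against 142 CPM, -2.90 ± 0.08). Thra and Thrb, the receptors, were both higher in hippocampus (1.15 and 2.22).

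Of 41 cytosolic ribosomal protein genes, 33 were higher in hippocampus and none in cerebellum, but none was past 2-fold (median 0.33). With library totals alone 2 were higher in cerebellum, and without animal 3, 1 was. Rps2 was the steepest (235 against 118 CPM, 0.99 ± 0.05), and many of these genes have processed copies elsewhere in the genome that can share reads. Of all genes tested, 65.9% were called. Of 12 tested mitochondrially encoded genes, 6 were higher in hippocampus, 3 in cerebellum and 3 were not called, none past 2-fold. With library totals alone 2 were higher in hippocampus, and without animal 3, 3 were. The genes higher in cerebellum, mt-Nd4l, mt-Co3 and mt-Atp6, stood at 3.51, 4.08 and 2.45 CPM there against 16913 CPM for mt-Co1, and have near-identical copies in the nuclear genome, so their counts are uncertain.

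Matrix and cytoskeleton held a few wide differences. Reln (reelin), which granule cells secrete, stood at 91, 93.2 and 99.8 CPM in hippocampus and 407, 323 and 409 CPM in cerebellum (-1.996 ± 0.07). Hapln1, a link protein of perineuronal nets, stood at 34.7, 36.7 and 35.6 CPM in hippocampus and 5.52, 6.33 and 6.48 CPM in cerebellum (2.54 ± 0.09), and Thbs4, a thrombospondin, at 12.6 against 0.131 CPM (6.59 ± 0.25). In the axonal list Ank1, an ankyrin, was cerebellar (57.6 against 567 CPM, -3.30 ± 0.05) while Ank3, which builds the axon initial segment, was not called (541 against 559.7 CPM). Tubb2a, a tubulin, was hippocampal (472 against 117 CPM, 2.02 ± 0.05), and Mapt (tau) was not called (533 against 539 CPM).

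Immediate early genes, which neurons transcribe within minutes of activity, were higher in hippocampus for 18 of 24 members, 17 of them past 2-fold, and in cerebellum for 4 (median 1.72). Egr3 stood at 125, 123 and 131 CPM in hippocampus and 0.631, 0.537 and 0.394 CPM in cerebellum (7.93 ± 0.11), and Arc, which regulates AMPA receptor traffic, at 126 against 22.7 CPM (2.44 ± 0.09). The classical member Fos went the other way, at 10.5, 6.31 and 23.1 CPM in hippocampus and 20.1, 16.8 and 39.2 CPM in cerebellum (-1.004 ± 0.11). The tissue ranges of Fos overlapped, although cerebellum was higher within each animal. Dusp1 (19.8 against 42.7 CPM, -1.12 ± 0.07), Ier2 (-1.30) and Dusp5 (22.3 against 101 CPM, -2.17 ± 0.06) were the others higher in cerebellum.

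The same 3 animals gave both tissues, so differences between animals could be tested in the same fit, with animal terms common to both tissues. A difference in 1 tissue alone can also drive such a call. Tmem72, which was called, stood at 0.118, 0.114 and 0.118 CPM in hippocampus and 30, 42.8 and 18.7 CPM in cerebellum. Calls were few: 21 of 18128 genes were called (0.116%, edgeR quasi-likelihood F test of the animal terms), and 1050 had an unadjusted p below 0.05. Of the 21, 17 had the same highest animal in both tissues, 19 the same lowest and 16 the same order of all 3. The test favours genes whose animals differ alike in both tissues. Such agreement, here and for the genes named below, is therefore partly built into their choice, and the share over all genes is not given. Of the 24 immediate early genes, 5 were among them. Dusp1, a phosphatase of MAP kinases, stood at 16.6, 14.2 and 28.4 CPM in the hippocampus of animals 1, 2 and 3 and at 35.6, 33.1 and 59.5 CPM in their cerebellum (adjusted p for the animal = 0.00107, edgeR). Egr1 stood at 139.5, 108 and 174 CPM in hippocampus and 43.6, 40.2 and 67.4 CPM in cerebellum (0.0078), Junb at 62.3, 55.2 and 86.6 CPM in hippocampus and 11.3, 8.75 and 16.8 CPM in cerebellum (0.00945), and Npas4 at 10.8, 7.94 and 23.8 CPM in hippocampus and 1.93, 2.47 and 4.78 CPM in cerebellum (0.0187). Fos had an adjusted p of 0.00164 by the same edgeR test. Animal 3 was the highest of the 3 for all 5 genes in both tissues, and animal 2 the lowest in all but the cerebellar Npas4.

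Sgk1, a kinase induced by glucocorticoids, ran differently, at 62.6, 88.1 and 56.9 CPM in hippocampus and 69.8, 101 and 60 CPM in cerebellum (adjusted p for the animal = 0.00172, edgeR). Per2, of the circadian clock, was at 47.8, 50.7 and 34.5 CPM in hippocampus and 48.7, 57.8 and 32.1 CPM in cerebellum (0.0116). Both were highest in animal 2 and lowest in animal 3 in each tissue, and Per2 was not called between the tissues (log2 fold change -0.04, adjusted p = 0.575 by edgeR). The labels do not give the hour at which each animal was killed. Ace, the angiotensin converting enzyme of vessels and choroid plexus, stood at 12.2, 18.8 and 10.6 CPM in hippocampus and 65.9, 83.5 and 42.6 CPM in cerebellum (0.0078 for the animal), in the order of the summed plexus markers in the cerebellum libraries. The plexus markers Kcne2 and Tmem72 were also among the 21, and the part of plexus content in these 3 calls was not tested. Of the 10 with the smallest p, the others were Ptar1, a prenyltransferase subunit, and 2 predicted genes, Gm47283 and Gm43305.

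**Figure D5:**
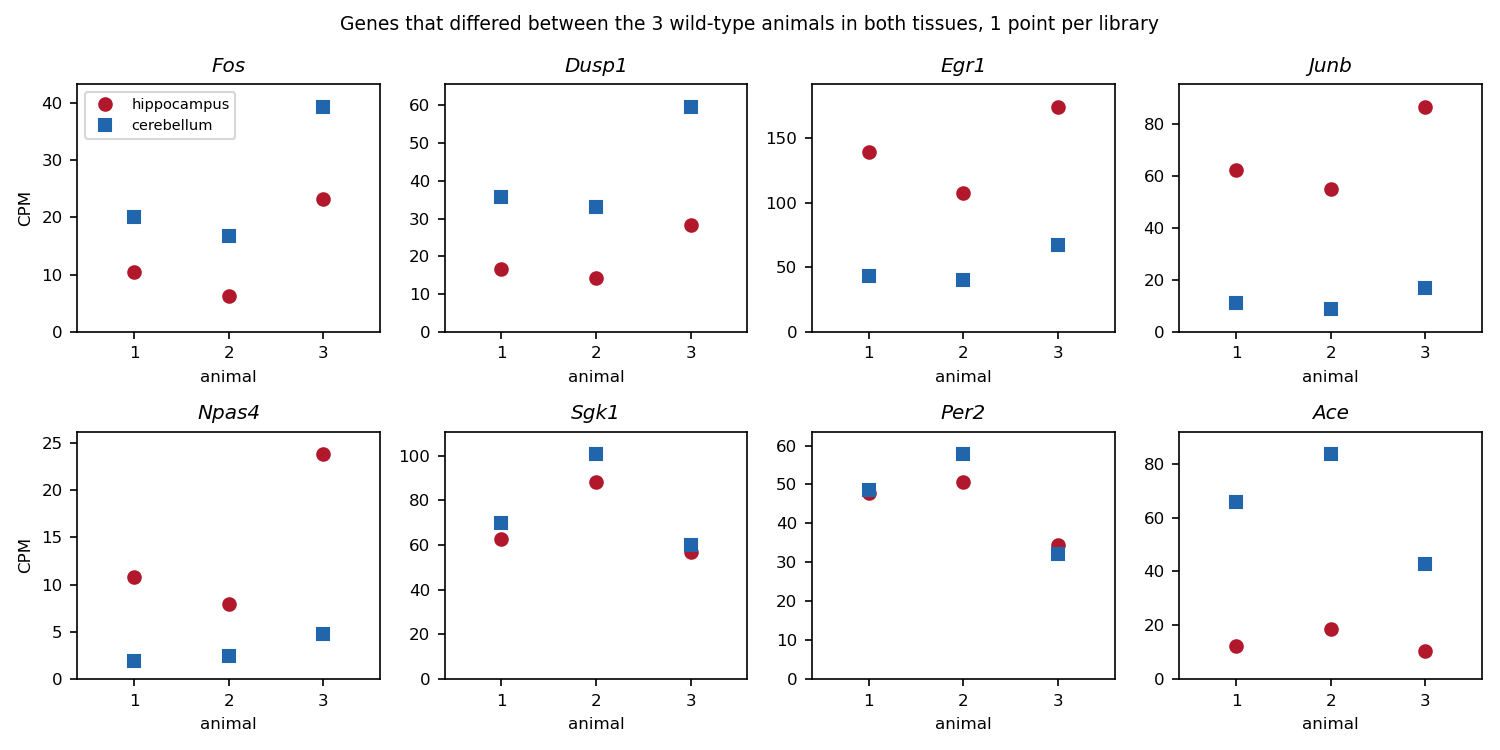
CPM of 8 genes that differed between the 3 wild-type animals, 1 point per library, with hippocampus as circles and cerebellum as squares; each vertical axis starts at 0. Fos, Dusp1, Egr1, Junb and Npas4 are highest in animal 3 in both tissues, and Sgk1, Per2 and Ace are highest in animal 2 and lowest in animal 3.

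The tissue contrast was repeated in the 3 animals labelled knockout, which share no library with the wild-type comparison. Syt14 itself stood at 38.5, 38.9 and 38 CPM in wild-type hippocampus and 33.6, 33.2 and 38 CPM in wild-type cerebellum and was not called (0.14 ± 0.07, adjusted p = 0.0802 by edgeR). It stood at 29.3, 28.1 and 30.6 CPM in the hippocampus libraries labelled knockout and at 30.8, 30.9 and 30.4 CPM in their cerebellum libraries, so that all 6 lay below all 6 wild-type libraries. Its counts did not approach 0 in any library. The part of the gene that the allele removes is not known here, so a count over the whole gene does not check those labels. In these animals 11244 of 18200 genes were called between tissues (61.8%), 5565 higher in hippocampus and 5679 in cerebellum. Of the 11794 genes called in the wild type and tested there, 11711 (99.3%) had the same direction and 10194 (86.4%) were called in it. Of 3239 genes past 2-fold in the wild type, 3238 had the same direction and 3168 were called in it. One gene was called in opposite directions, Osr1, a transcription factor of mesenchyme, at 2.99, 4.29 and 2.35 CPM in wild-type hippocampus and 2.8, 1.37 and 1.85 CPM in cerebellum (0.70 in wild type and -0.68 in knockout); it was named after its values were seen.

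The list medians had the same sign in both sets of animals for 60 of 64 lists. The 4 of opposite sign had medians close to 0: steroid, thyroid and retinoid receptors (-0.04 in the wild type and 0.09 in the knockout), hypothalamus (0.17 and -0.17), the tricarboxylic acid cycle (0.0028 and -0.0038) and the large axon cytoskeleton (0.047 and -0.00092). Some of the same sign differed in size: brainstem and deep nuclei had -0.07 and -1.87, meninges and fibroblasts -0.85 and -1.66, and endothelium -0.02 and -0.36. The median log2 fold change in the animals labelled knockout was -5.11 for granule cell markers, -4.06 for Purkinje cell markers, 5.26 for forebrain excitatory neurons, 1.33 for microglia and 3.24 for serotonin receptors. Choroid plexus markers had -3.82 there against -4.93 in the wild type. A test of the difference between the genotypes' tissue contrasts, over all 12 libraries, called 2 of 19027 genes (0.0105%), Cck and Fosl2.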

How the data were processed

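Per the labels' protocols, RNA was extracted with Trizol, polyadenylated RNA was selected and strand-specific libraries were made by the dUTP method. Per the submitters' processing notes, Trimmomatic 0.39, STAR 2.7.10 and featureCounts 2.0.3 were used with mm10/GRCm38; the sources used here do not give the annotation release or strand setting. For each tissue the authors deposited 1 table of raw read counts per gene. Of 54446 gene identifiers, 54409 were matched to GENCODE M21 for symbols and positions. Genes were kept with edgeR's filterByExpr (minimum count 10, total 15), leaving 18128, and scaled by TMM factors (0.9452 to 1.067).

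The main test was edgeR's quasi-likelihood fit (edgeR 4.0.16, R 4.3.3) with animal and tissue as terms and Benjamini-Hochberg adjustment over all genes tested, and glmTreat for differences over 2-fold. The animal numbers in the labels are the same in both tissues, which is where the pairing comes from. Deviations from the tissue means correlated at 0.0538, 0.0755 and 0.127 within animals and at -0.0792 to 0.00176 between animals. The deviations of a gene cancel out within a tissue, so positive values within animals bring lower ones between animals. All of these values were small. The biological coefficient of variation was 6%. No 2 wild-type libraries of a tissue agreed within sampling noise (chi-square of 4.11 to 11.57 per gene). The 6 libraries labelled knockout were fitted in the same way, and all 12 for the test of the difference between genotypes. With 3 animals a tissue, p-values rest on few animals. Alternatives were DESeq2 1.42.0, limma-voom (limma 3.58.1), other scalings and filters, the fit without animals and each animal left out.

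Members and lists were chosen with earlier results of these data known. Genes were named by rule: the 15 largest differences in each direction with at least 5 CPM and ranges apart, without predicted genes (1 in hippocampus and 2 in cerebellum passed over); up to 5 called members per list and direction and 3 not called; every family member; the 10 genes with the smallest p for animals; and Syt14. Some of these genes are not reported here. Other list members in the text were named after their values were seen. Promoters from RefSeq (GRCm38) matched 12644 of the 18128 genes.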

Additional observations from a re-analysis of the deposited data

Results flagged for a closer look

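In 2 genes the difference between hippocampus and cerebellum was itself different between the wild-type animals and those labelled knockout, by the interaction term of edgeR's quasi-likelihood fit over all 12 libraries (0.0105% of 19027 genes tested; 987 had an unadjusted p below 0.05). Cck, the neuropeptide cholecystokinin, had a tissue difference of 3.13 (log2) in the wild type and 2.24 in the knockout, 0.89 larger in the wild type (adjusted p = 0.00116). Its means were 248.6 and 248.9 CPM in hippocampus, wild type first, and 28.3 CPM in the wild-type cerebellum against 52.8 CPM in the knockout cerebellum. Fosl2, an AP-1 transcription factor, had tissue differences of 3.02 and 1.96, 1.05 larger in the wild type (adjusted p = 0.0155). Its means were 68.2 and 73.5 CPM in hippocampus and 8.44 and 18.8 CPM in cerebellum, wild type first. Both genes were higher in hippocampus in both genotypes, and in both the genotypes were closer in hippocampus than in cerebellum.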

How the results depend on the processing

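The count of called genes stayed between 10099 (DESeq2 test) and 12512 (no filter on low counts) under 12 alternatives, against 11948. Without the replicate block, that is without pairing by animal, 11986 genes were called, 3345 past 2-fold, and 11664 in the animals labelled knockout; the block moved none of these 3 counts by more than 1.5 times, and of the list counts 1, from 0 to 1 mural cell marker higher in hippocampus. Leaving out each animal in turn gave 10841 to 11520 calls, 3194 to 3254 past 2-fold, and 8863 to 11031 in the animals labelled knockout. The number past a fold depended on that fold by construction: 5348 genes passed a fold of 1.5 (2973 in hippocampus and 2375 in cerebellum) and 1412 a fold of 4 (882 and 530). Of 584 genes named by rule and tested, 500 kept direction and side of the threshold under every alternative; of 497 called, 34 lost the call under at least 1, and under the 12 alternatives 0 changed direction. The medians of 57 of 64 lists kept their sign under each alternative that gave a value. Of 1536 list counts compared, 29 moved by more than 1.5 times, most of them in the endothelial, mural, oxidative phosphorylation and mitochondrial lists. DESeq2 size factors gave 21 genes for the animals and a minimum of 1 CPM gave 19. Genes with fewer than 4 counts in a tissue have no usable fold beyond the intervals given.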
